A study of Mus musculus with 6 samples.

Results

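Genes of the hypoxia response and of glycolysis were examined in whole mouse kidneys of E13.5 embryos. The 34 genes were chosen by name: 15 glycolytic enzymes, 5 genes of glucose and lactate transport and of glycolysis control, 12 other hypoxia targets and the genes of 2 HIF alpha subunits. Of these, 31 had a probe set annotated to that gene alone, out of 18193 genes measured. Gapdh shared its probe sets with pseudogenes and other loci, and no probe set was annotated to Gpi1 or Eno1 alone. A gene with several probe sets was represented by the one with the highest mean over the 6 arrays, and values are log2 intensities.

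Each genotype had 3 biological replicates on Affymetrix MOE430.2 arrays. Kidneys of genotype Fz4+/+Fz8-/- (Fz8-null, arrays C1, C2 and C3) were compared with kidneys of genotype Fz4-/-Fz8-/- (double-null, arrays M1, M2 and M3). Every array therefore lacks Fz8, a Frizzled receptor for Wnt ligands, and the groups differ by the loss of Fz4, a related receptor. The mice were hybrids of C57BL/6, 129X1/SvJ and 129S1/Sv, and the labels do not say how many embryos an array holds. Fzd4, the gene of Fz4, read 10.74, 10.86 and 10.93 in C1, C2 and C3 and 5.29, 4.96 and 3.89 in M1, M2 and M3, so all 3 double-null arrays matched their label.

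Cells sense oxygen through prolyl hydroxylases, which mark HIF alpha subunits for destruction while oxygen is present. When oxygen falls, HIF alpha pairs with ARNT, binds short DNA elements and raises the transcription of genes for glucose uptake, glycolysis, angiogenesis and mitochondrial turnover. The embryonic kidney develops in low oxygen, expresses HIF alpha subunits, and its progenitors are known to rely on glycolysis.

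The arrays did not group by genotype alone. M1 and M2 correlated with each other at 0.986 over all probe sets and with the Fz8-null arrays at 0.944 to 0.972, while M3 correlated with the Fz8-null arrays at 0.987 to 0.990 and with M1 and M2 at 0.963 and 0.952. The difference between the 3-prime and 5-prime control probe sets of beta-actin was 1.30, 1.08 and 0.57 on M1, M2 and M3, against 0.74 to 1.00 in Fz8-null arrays. For the Gapdh controls this difference was 1.15, 1.04 and 0.88, against 0.79 to 1.01. Kidney markers were present in every array (list means from 9.55 to 9.63 in Fz8-null and from 9.05 to 9.32 in double-null arrays), and all 9 measured, among them Six2, Wt1 and Foxd1, stood lower in the double-null mean. Liver markers were higher in the double-null mean for 9 of 9 genes, with list means of 5.74 to 6.49 in Fz8-null and 6.94 to 9.54 in double-null arrays. Erythroid markers were higher for 10 of 10 (6.54 to 6.76 against 6.37 to 8.68). The erythroid list deviated from its Fz8-null mean by -0.31 on M1, 1.75 on M2 and 2.00 on M3. The part of RNA quality and of these markers in the results was not tested.

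No hypoxia or glycolysis gene passed an adjusted p of 0.05 between the genotypes (0 of 31; limma with Benjamini-Hochberg adjustment over 18193 genes, of which 0.0165% were called). The lowest limma adjusted p among them was 0.359. At an unadjusted p under 0.05 stood 4 of 31 (12.9%, against 13.6% of all genes): Hk2, Slc16a3 and P4ha2 lower (8.13% of all genes were lower) and Bnip3 higher (5.49%) in double-null kidneys. The groups did not overlap for 6 of 31 (19.4%, against 18.9% of all genes). Of these, Hk2, Pgk1, P4ha2, Vegfa and Kdm3a were lower (12.2% of all genes) and Bnip3 was higher (6.68%). Both shares lay near those of all genes. Of the 31 genes 23 stood lower (74.2%), against 58.1% of all genes and 71.5% of the 11174 genes whose mean reached 6. After quantile normalization 21 of the 31 stood lower, against 58.3% of the genes whose mean reached 6. The median difference, double-null minus Fz8-null, was -0.16 over the 31 genes, -0.061 over all genes and -0.15 over those whose mean reached 6. Whole kidneys were measured, so fewer cells of a type and less RNA per cell cannot be told apart.

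Of the arrays left out 1 at a time, M3 changed the count of called genes the most. Over all genes, 2883 were called without M3, 27 without M1 and 0 without C2, against 3 with all arrays. Without M3, 5 of the 31 were called lower (limma adjusted p from 0.00872 to 0.0402), where 15.8% of all genes were called and 8.92% were called lower: Hk2, Aldoc, Slc16a3, Pfkfb3 and P4ha2. Without any other array 0 of 31 were called. The count of genes without overlap was 20 of 31 without M3, where 53.4% of all genes did not overlap, and 12 of 31 without C1, where 39.4% did not. Array weights were 4.43 for M1, 0.494 for M2 and 0.185 for M3, so M1 carried most of the double-null weight. With array weights 14 of the 31 were called, 13 of these lower (40.1% of all genes were called, 25.2% lower).

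**Figure D1:**
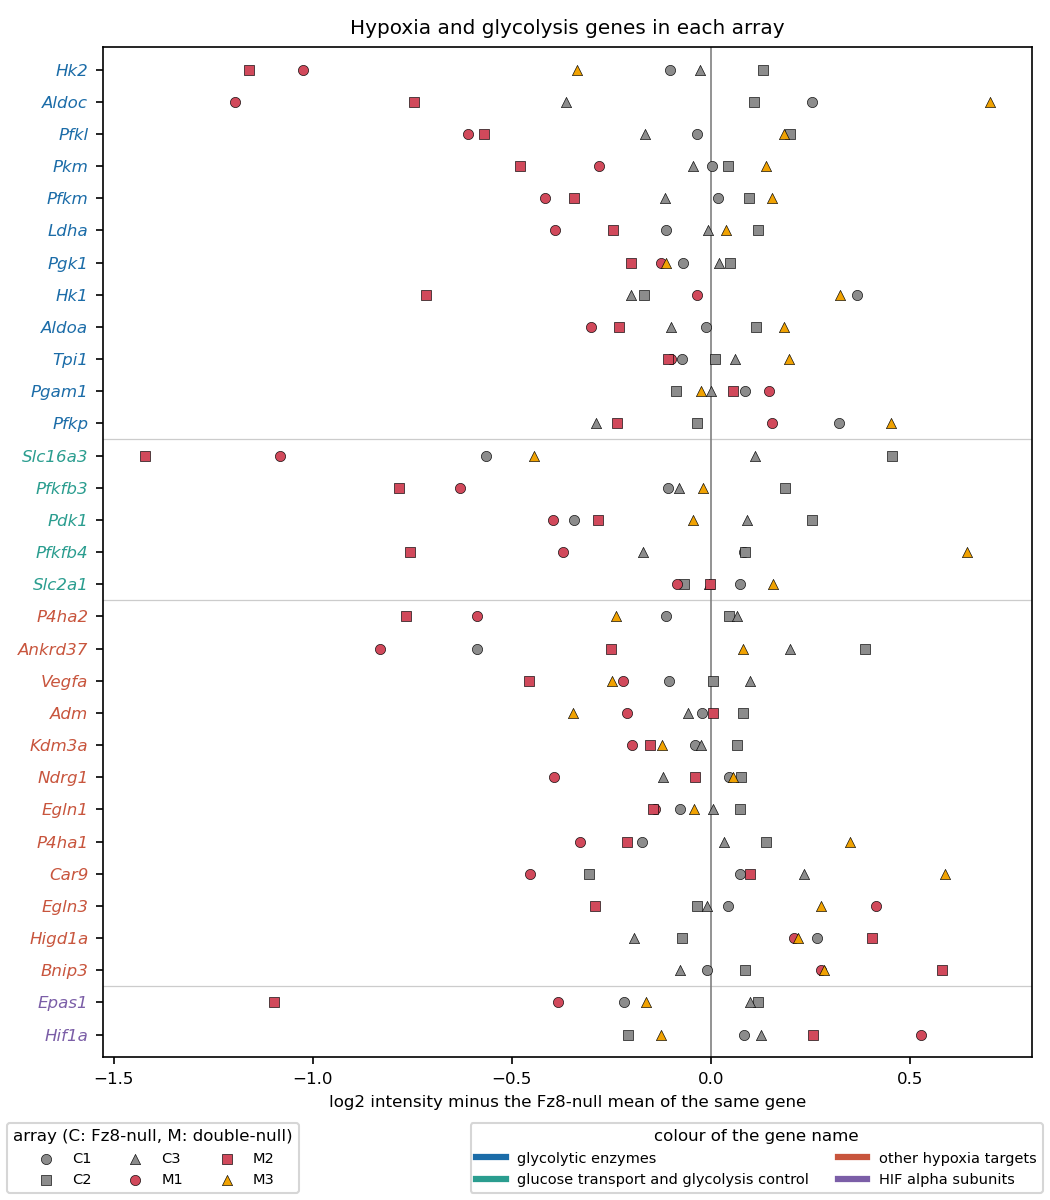
Log2 intensity of each of the 31 genes in each array, minus the Fz8-null mean of that gene (horizontal axis), with genes grouped by role (colour of the name) and sorted by their difference; each point is 1 array. M1 and M2 (red) lie left of the Fz8-null arrays (grey) for most genes, while M3 (orange) lies among or right of them for most glycolytic enzymes.

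Hk2 encodes hexokinase 2, the inducible enzyme that traps glucose in the cell as glucose 6-phosphate. It read 10.50, 10.73 and 10.57 in C1, C2 and C3 and 9.58, 9.44 and 10.27 in M1, M2 and M3. All double-null arrays lay below every Fz8-null array, M3 by the smallest step. The difference was -0.84 (SE 0.24, limma adjusted p = 0.359), a level 1.79-fold lower with a 95% interval of -1.40 to -0.28 in log2 units. Of all genes 1.40% had a lower difference. Without M3 it was -1.09 (limma adjusted p = 0.00872).

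Slc16a3 encodes MCT4, the exporter of lactate from glycolytic cells, and had the lowest difference of the 31 genes. It read 7.46, 8.48 and 8.14 in Fz8-null and 6.95, 6.61 and 7.59 in double-null arrays, so M3 overlapped C1. Its difference was -0.98 (SE 0.34, limma adjusted p = 0.359), or 1.97-fold lower, and it was -1.25 without M3 (limma adjusted p = 0.0402).

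P4ha2 encodes a catalytic subunit of collagen prolyl 4-hydroxylase, which needs oxygen to mature collagen chains. It read 7.37, 7.52 and 7.55 in Fz8-null and 6.89, 6.71 and 7.24 in double-null arrays, and the groups did not overlap. The difference was -0.53 (SE 0.17, limma adjusted p = 0.359), and it was -0.68 without M3 (limma adjusted p = 0.0279).

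Bnip3 encodes a protein of the outer mitochondrial membrane that directs mitochondria to autophagy, and it is a direct HIF target. By representative probe sets, only Bnip3 of the 31 had all 3 double-null arrays above the Fz8-null arrays. The other probe set of Aldoc did so too. Bnip3 read 9.49, 9.58 and 9.42 in Fz8-null and 9.77, 10.08 and 9.78 in double-null arrays. M2 was the highest. The difference was 0.38 (SE 0.15, limma adjusted p = 0.360), or 1.30-fold higher, and it ranged from 0.28 to 0.43 when any array was left out.

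The stretches before the transcription start of these 4 genes, and of Ldha as a well-known HIF target that did not stand out here, are shown because they hold the letters that HIF binds. Each is the 250 bases before the start from RefSeq (GRCm38.p6), 5′ to 3′ on the gene's strand. Capitals mark ACGTG or GCGTG, or their reverse complements CACGT and CACGC. The positions are chr11:120948817-120949066, plus strand, for Slc16a3, chr6:82774455-82774704, minus strand, for Hk2, chr11:54100674-54100923, plus strand, for P4ha2, chr7:138909507-138909756, minus strand, for Bnip3 and chr7:46845554-46845803, plus strand, for Ldha, whose upstream start is shown out of 2 in the table.
Slc16a3: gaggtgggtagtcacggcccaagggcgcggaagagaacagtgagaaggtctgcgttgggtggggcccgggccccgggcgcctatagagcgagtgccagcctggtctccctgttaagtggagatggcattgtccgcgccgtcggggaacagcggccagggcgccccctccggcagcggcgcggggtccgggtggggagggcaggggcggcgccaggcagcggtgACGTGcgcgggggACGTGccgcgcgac
Hk2: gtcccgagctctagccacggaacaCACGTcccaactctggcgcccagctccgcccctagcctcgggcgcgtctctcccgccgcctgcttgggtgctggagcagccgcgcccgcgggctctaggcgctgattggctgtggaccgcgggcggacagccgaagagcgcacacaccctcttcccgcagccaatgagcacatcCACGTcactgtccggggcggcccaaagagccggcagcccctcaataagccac
P4ha2: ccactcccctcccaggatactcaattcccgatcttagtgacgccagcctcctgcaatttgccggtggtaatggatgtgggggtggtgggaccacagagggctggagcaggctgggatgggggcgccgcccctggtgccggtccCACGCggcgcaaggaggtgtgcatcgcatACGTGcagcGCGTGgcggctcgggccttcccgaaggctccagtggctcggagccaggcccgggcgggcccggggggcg
Bnip3: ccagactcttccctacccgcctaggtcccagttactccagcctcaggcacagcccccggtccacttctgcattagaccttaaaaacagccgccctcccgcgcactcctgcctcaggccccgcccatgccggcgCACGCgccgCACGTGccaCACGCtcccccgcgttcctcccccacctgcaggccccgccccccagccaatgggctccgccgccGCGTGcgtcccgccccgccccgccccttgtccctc
Ldha: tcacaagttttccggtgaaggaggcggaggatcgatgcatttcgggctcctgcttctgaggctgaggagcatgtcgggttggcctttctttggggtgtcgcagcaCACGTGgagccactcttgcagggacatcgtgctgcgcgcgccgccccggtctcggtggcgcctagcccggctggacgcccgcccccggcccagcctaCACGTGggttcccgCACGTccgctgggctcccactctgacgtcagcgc

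Slc16a3 held ACGTG at 27 and 14 bases before its start, and Hk2 held CACGT at 226 and 52 bases. P4ha2 held 3 matches and Bnip3 held 5. In Bnip3 a CACGT at 108 and an ACGTG at 107 overlap in 1 palindrome, CACGTG, the letters that MYC and other E-box factors also bind. Ldha held 5 matches, 4 of them in 2 such palindromes. Among the 32 genes of the list with a RefSeq window, 30 (93.8%) held a match in at least 1 window, as did 13 of 15 glycolytic enzymes and 11 of 11 other hypoxia targets. The share was 53.6% of 14449 genes on the arrays and 41.5% of all 27018 genes in the table. Windows of the list were 61% G and C on average and those of genes on the arrays 57.7%. The genes were named for their known place in hypoxia, so the share describes the list. The genes shown all held such letters, which is why their stretches are shown. Nearly every gene of the list did, so the letters cannot be compared with the direction of a difference.

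Of the 12 glycolytic enzymes measured, 10 stood lower, with a median difference of -0.17. All 12 had a mean above 6, and among genes whose mean reached 6 the share was 71.5% and the median -0.15. None was called, and 1 had an unadjusted p under 0.05 (Hk2, 8.33% of the enzymes against 13.6% of all genes). The groups did not overlap for Hk2 and Pgk1 (16.7% of the enzymes, against 18.9% of all genes). In the order of the pathway, Hk1, the constitutive hexokinase gene, stood at -0.14 (SE 0.30) with its arrays spread from 7.31 in M2 to 8.39 in C1. Of the phosphofructokinase genes, whose products commit sugar to glycolysis, Pfkl (liver type) stood at -0.33 (SE 0.25), Pfkm (muscle type) at -0.20 (SE 0.19) and Pfkp (platelet type) at 0.12 (SE 0.24). Aldoa, the main aldolase gene, stood at -0.12 (SE 0.17), and Tpi1, which encodes triosephosphate isomerase, at -0.0038 (SE 0.14), the smallest difference of the 31.

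Aldoc, an aldolase gene typical of the brain, had the widest spread in double-null arrays. It read 6.66, 6.51 and 6.04 in Fz8-null and 5.21, 5.66 and 7.11 in double-null arrays, where M1 and M2 were the lowest and M3 the highest of all 6. Its difference was -0.41 (SE 0.48, limma adjusted p = 0.676), and -0.97 without M3 (limma adjusted p = 0.0402). The other probe set of Aldoc was dim, with a mean of 4.23, and went the other way without overlap. It read 3.72, 3.71 and 3.81 in Fz8-null and 4.71, 5.62 and 3.84 in double-null arrays (difference 0.98, SE 0.42). Neuron and neural crest markers deviated by -0.026, 0.43 and 0.24 on M1, M2 and M3, and their part in the value of Aldoc was not tested.

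The later enzymes of the pathway recover ATP and end in lactate. Pgk1, which encodes phosphoglycerate kinase, read 12.26, 12.38 and 12.35 in Fz8-null and 12.21, 12.13 and 12.22 in double-null arrays. The groups did not overlap, though the difference was only -0.15 (SE 0.12, limma adjusted p = 0.562). Pgam1 stood at 0.059 (SE 0.13), Pkm, the pyruvate kinase gene of most embryonic tissues, at -0.21 (SE 0.18) and Ldha, whose product turns pyruvate into lactate, at -0.20 (SE 0.16). For Pkm and Ldha, M1 and M2 lay below every Fz8-null array and M3 did not. A probe set that Gapdh shares with pseudogenes read 13.77, 13.74 and 13.72 in Fz8-null and 13.54, 13.45 and 13.69 in double-null arrays, and because it is shared it was not counted.

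Among the genes that feed and steer glycolysis, 4 of 5 stood lower, with a median of -0.24 and no call. Slc2a1 encodes GLUT1, the glucose importer of most embryonic cells. It read 11.78, 11.64 and 11.70 in Fz8-null and 11.62, 11.70 and 11.86 in double-null arrays, and the groups overlapped throughout. Its difference was 0.023 (SE 0.13, limma adjusted p = 0.941), with a 95% interval of -0.30 to 0.34. Pfkfb3 and Pfkfb4 encode enzymes that set the level of fructose 2,6-bisphosphate, the activator of phosphofructokinase. Pfkfb3 stood at -0.48 (SE 0.23, limma adjusted p = 0.375) and at -0.71 without M3 (limma adjusted p = 0.0310). Pfkfb4 stood at -0.16 (SE 0.35), with 5.66 in M2 and 7.06 in M3, the lowest and the highest of the 6 arrays. Pdk1, whose kinase closes the entry of pyruvate into mitochondria, stood at -0.24 (SE 0.20).

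The other hypoxia targets stood lower in 8 of 12 (66.7%, against 58.1% of all genes and 71.5% of those whose mean reached 6), with a median of -0.12 and no call. The groups did not overlap for 4 of them (18.9% of all genes), Vegfa, P4ha2, Kdm3a and Bnip3. Among the secreted signals, Vegfa, the main angiogenic growth factor, read 8.43, 8.54 and 8.63 in Fz8-null and 8.31, 8.07 and 8.28 in double-null arrays. All 3 double-null arrays lay lower, M3 included. The difference was -0.31 (SE 0.14, limma adjusted p = 0.368), or 1.24-fold lower, with a 95% interval of -0.64 to 0.022, and -0.23 to -0.36 when any array was left out. Adm, the gene of the vasodilator peptide adrenomedullin, stood at -0.18 (SE 0.14), and here M3 was the lowest array at 8.01. Its other probe set, at -0.17 (SE 0.33), had M3 as the highest of the 6 arrays at 6.60.

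No oxygen sensor or chromatin enzyme gene passed the test. Egln1 and Egln3 encode prolyl hydroxylases that HIF induces in feedback, and they stood at -0.11 (SE 0.12) and 0.13 (SE 0.20). Egln3 was even in Fz8-null arrays, with an SD of 0.040, and ranged from 6.87 in M2 to 7.58 in M1. Kdm3a, a histone demethylase gene, read 10.00, 10.11 and 10.02 in Fz8-null and 9.84, 9.89 and 9.92 in double-null arrays. Its groups did not overlap, at a difference of -0.16 (SE 0.12, limma adjusted p = 0.527).

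Car9 encodes carbonic anhydrase 9, a surface enzyme used as a tissue marker of hypoxia. It was dim in every array, with 4.98, 4.61 and 5.14 in Fz8-null and 4.46, 5.01 and 5.50 in double-null arrays, and its difference was 0.077 (SE 0.29, limma adjusted p = 0.907). Ankrd37 stood at -0.33 (SE 0.33), and C1 at 7.73 lay well below C2 and C3. Ndrg1 stood at -0.13 (SE 0.16). Higd1a, which encodes a mitochondrial protein of the respiratory chain, stood at 0.28 (SE 0.17), and P4ha1, which encodes another catalytic subunit of collagen prolyl 4-hydroxylase, at -0.063 (SE 0.21).

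The HIF alpha genes themselves gave no call. Hif1a, whose product is the broadly expressed subunit, read 11.78, 11.49 and 11.82 in Fz8-null and 12.22, 11.95 and 11.57 in double-null arrays. M1 and M2 were the highest arrays and M3 lay within the Fz8-null range, with a difference of 0.22 (SE 0.20, limma adjusted p = 0.600). This order held for the representative probe set of Hif1a. In another, at -0.62, M1 and M2 were the lowest arrays at 6.62 and 6.65. Epas1, the gene of HIF-2 alpha, which is typical of endothelial and stromal cells in the kidney, read 9.43, 9.76 and 9.75 in Fz8-null and 9.26, 8.55 and 9.48 in double-null arrays. M2 was the lowest, and the difference was -0.55 (SE 0.26, limma adjusted p = 0.377). Endothelial markers deviated from their Fz8-null means by -0.26 on M1, -0.72 on M2 and 0.043 on M3. Their 12 genes had list means of 8.22 to 8.40 in Fz8-null and 7.57 to 8.33 in double-null arrays, and their part in the value of Epas1 was not tested. HIF alpha is controlled mainly at the protein, which the arrays do not measure.

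Probe sets of a gene did not always differ alike. The 31 genes had 66 probe sets of their own, 49 lower and 17 higher. None passed over all 45037 probe sets (lowest limma adjusted p = 0.322), and 7 had an unadjusted p under 0.05. By gene, on representative probe sets and so not the same measure, 58.1% of all genes and 71.5% of those whose mean reached 6 stood lower. Of all genes 13.6% had an unadjusted limma p under 0.05. Probe sets of 1 gene are not independent. Of the 19 genes with several probe sets, 7 had differences of both signs: Aldoa, Aldoc, Pgk1, Slc2a1, Higd1a, P4ha1 and Hif1a. The widest split was in Aldoc, with -0.41 for the representative probe set and 0.98, without overlap, for the other. For Hif1a the representative probe set stood at 0.22, and the others at -0.16, -0.62 and 0.33. Higd1a stood at 0.28, -0.24 and -0.46 over its 3 probe sets. In Vegfa both probe sets were lower and without overlap, with the second at -0.43 (5.23, 5.54 and 5.32 against 4.74, 4.89 and 5.17). The other probe set of Egln1 stood at -0.57, without overlap, where the representative stood at -0.11. Hk2, Slc16a3, P4ha2 and Bnip3 had 1 probe set each, so their values have no such check.

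**Figure D2:**
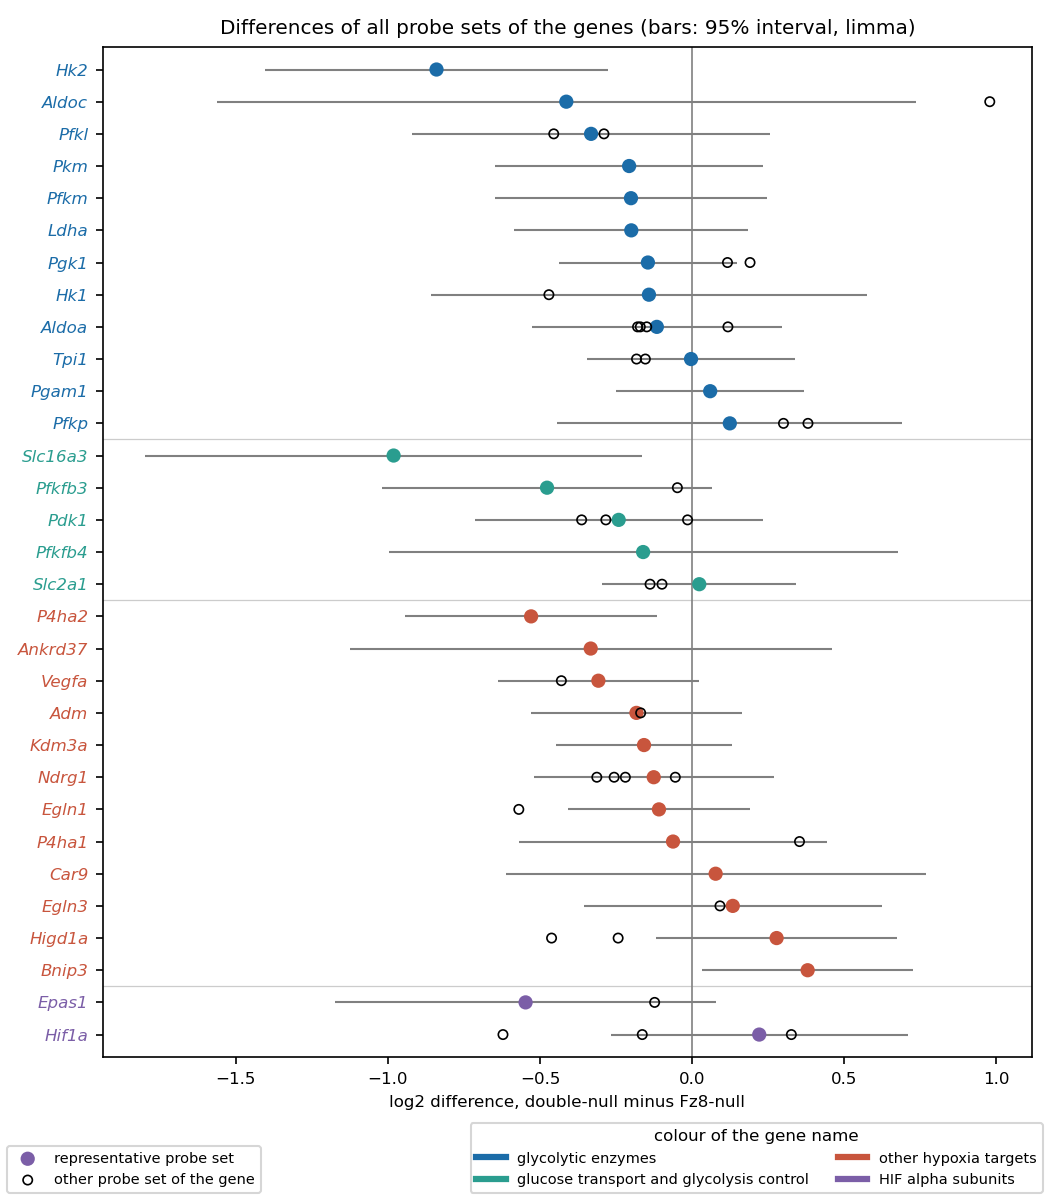
Log2 difference, double-null minus Fz8-null (horizontal axis), of each representative probe set (filled, with limma's 95% interval over 3 arrays a group) and of every other probe set of the gene (open). Intervals of Hk2, Slc16a3, P4ha2 and Bnip3 leave out 0 before adjustment, and at least 1 open point each of Aldoc, Hif1a and Higd1a lies on the other side of 0 from the filled ones.

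M3 differed from M1 and M2 across the genes. M1 lay below every Fz8-null array for 24 of the 31 genes and M2 for 20, but M3 for 6. M3 lay above every Fz8-null array for 12 of 31, against 4 in M1 and 3 in M2. For genes whose mean reached 6, M1 was below every Fz8-null array in 52.4%, M2 in 59.9% and M3 in 29.9%. In the same genes M3 was above every Fz8-null array in 23.2%, M1 in 17.9% and M2 in 16.4%. Among the 12 measured enzymes M3 was the highest double-null array in 11 (91.7%), against 60.2% of genes whose mean reached 6. Pgam1 was the exception.

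The mean deviation of the enzymes from their Fz8-null means was -0.35 for M1, -0.41 for M2 and 0.16 for M3. In the transport and control genes it was -0.51, -0.65 and 0.059, and in the other hypoxia targets -0.21, -0.10 and 0.072. All genes whose mean reached 6 stood at -0.17, -0.25 and -0.0070 on the same arrays. With M3 as the only double-null array 18 of the 31 did not overlap, against 53.1% of all genes. The enzymes' median difference was then 0.17 and that of the other hypoxia targets 0.069. M1 and M2 were also the arrays with the largest 3-prime to 5-prime differences of actin and Gapdh, and the part of this in the enzyme values was not tested. On M3, 13 of the 31 genes lay below their Fz8-null mean. The 6 that lay below every Fz8-null array there were Hk2, P4ha2, Vegfa, Pgk1, Kdm3a and Adm, with deviations of -0.34, -0.24, -0.25, -0.11, -0.12 and -0.35. These are the representative probe sets, and the other probe sets of Adm and Pgk1 did not lie below every Fz8-null array on M3.

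**Figure D3:**
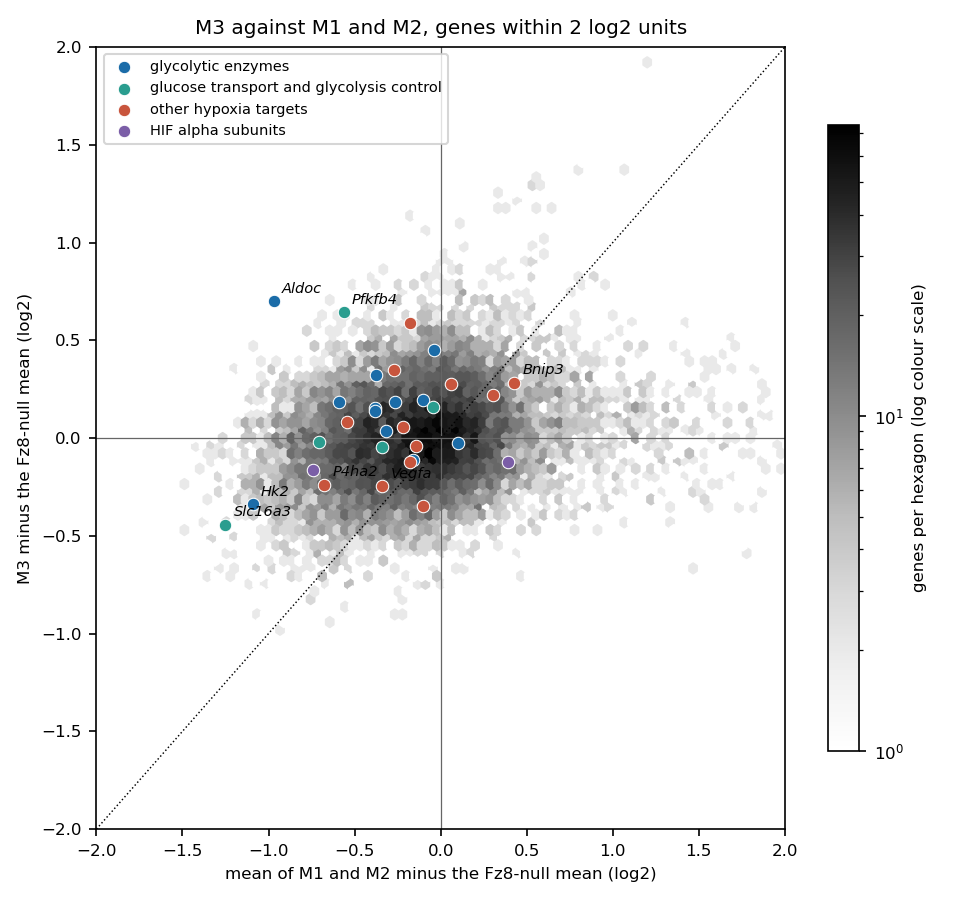
Deviation from the Fz8-null mean in M3 (vertical axis, log2) against the mean deviation in M1 and M2 (horizontal axis, log2), for all genes within 2 log2 units (grey hexagons, log colour scale) and the 31 genes (points, coloured by role); the dotted line marks equal deviation. Most points lie left of 0 and above the line, with Hk2, Slc16a3 and P4ha2 low on both axes, Bnip3 high on both, and Aldoc and Pfkfb4 low in M1 and M2 but high in M3.

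Other genes of the same pathways gave no call either, in 7 lists with adjusted p of 0.359 or above. The genes with the 2 smallest p of each list are given as values. For comparison, 58.1% of all genes stood lower, and 71.5% of those whose mean reached 6, where the median was -0.15. Of the HIF machinery, 9 of 11 stood lower with a median of -0.15. Arnt, the shared partner of HIF alpha, stood at -0.37 (SE 0.16), and Ep300, a HIF coactivator gene, at -0.30 (SE 0.15). Of 26 further hypoxia targets, 20 stood lower with a median of -0.27, and 6 had an unadjusted p under 0.05 (5 lower, 1 higher; 8.13% and 5.49% of all genes). Gys1, the muscle-type glycogen synthase gene, read 7.06, 7.68 and 7.46 in Fz8-null and 6.27, 6.09 and 6.71 in double-null arrays, a difference of -1.04 (SE 0.23, limma adjusted p = 0.359). Stc2 stood at -0.49 (SE 0.14).

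Partners of VEGF and adrenomedullin were lower in 9 of 10, with a median of -0.28 (71.5% of genes whose mean reached 6 stood lower). The list holds endothelial genes, and Kdr is also in the endothelial marker list, which deviated by -0.26, -0.72 and 0.043 on M1, M2 and M3. Its part in these values was not tested. Kdr, the main VEGF receptor gene of endothelium, stood at -0.80 (SE 0.25) and Pgf, a VEGF relative, at -0.77 (SE 0.26). For both, M1 and M2 were the lowest of the 6 arrays. Genes that let pyruvate into mitochondria split, with 6 lower and 5 higher of 11. Pdk4, which encodes a kinase that shuts pyruvate dehydrogenase, read 7.84, 8.04 and 8.20 in Fz8-null and 9.17, 9.34 and 8.33 in double-null arrays (difference 0.92, SE 0.28, limma adjusted p = 0.359). Pdp2, which encodes a phosphatase of the opposite effect, stood at -0.93 (SE 0.25). Pdp1, which encodes another such phosphatase, went the other way, at 0.88 (SE 0.32), and is named after its values were seen. The pentose phosphate genes stood lower in 4 of 6, with Tkt at -0.39 (SE 0.21) and Rpe at 0.18 (SE 0.18). Of 6 gluconeogenic genes 5 were higher, with a median of 0.051. Fbp2, the muscle fructose bisphosphatase gene, stood at 0.55 (SE 0.18, groups without overlap) and Pcx, the pyruvate carboxylase gene, at -0.46 (SE 0.20). Fbp2 was dim, with a mean of 4.58 over the arrays, as were Fbp1 (2.56), G6pc (2.77) and Pck1 (3.53).

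The other glycolytic isoforms were split, with 7 lower and 7 higher of 14. Tigar, a fructose bisphosphatase gene that slows glycolysis, stood at -0.83 (SE 0.23) and Eno3, the muscle enolase gene, at -0.62 (SE 0.20). Skeletal muscle markers stood lower in 9 of 10, with list means of 5.92 to 7.11 in Fz8-null and 5.26 to 6.27 in double-null arrays. They deviated by -0.54, 0.65 and -0.11 on C1, C2 and C3 and by -1.19, -0.44 and -0.19 on M1, M2 and M3. Eno3, Gys1 and Slc16a3 were also highest in C2 and lowest in C1 among the Fz8-null arrays, as were other genes, among them Hk2, Ldha and Pdk1. Among the double-null arrays Eno3, like the muscle markers, was lowest in M1, while Gys1 and Slc16a3 were lowest in M2. The part of muscle RNA in the values of Eno3, Gys1 and Slc16a3 was not tested. Pklr, the pyruvate kinase gene of liver and red cells, is named after its values were seen. It read 5.67, 6.40 and 5.89 in Fz8-null and 6.41, 8.54 and 8.99 in double-null arrays, a difference of 1.99 (SE 0.65, limma adjusted p = 0.359), where Pkm stood at -0.21. M2 and M3 were its highest arrays, as they were for Alb (10.82 and 11.03, against 5.82 to 7.06 in Fz8-null) and for the erythroid gene Hemgn (8.68 and 8.05, against 3.77 to 4.35). What these markers contribute to Pklr was not tested.

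**Figure D4:**
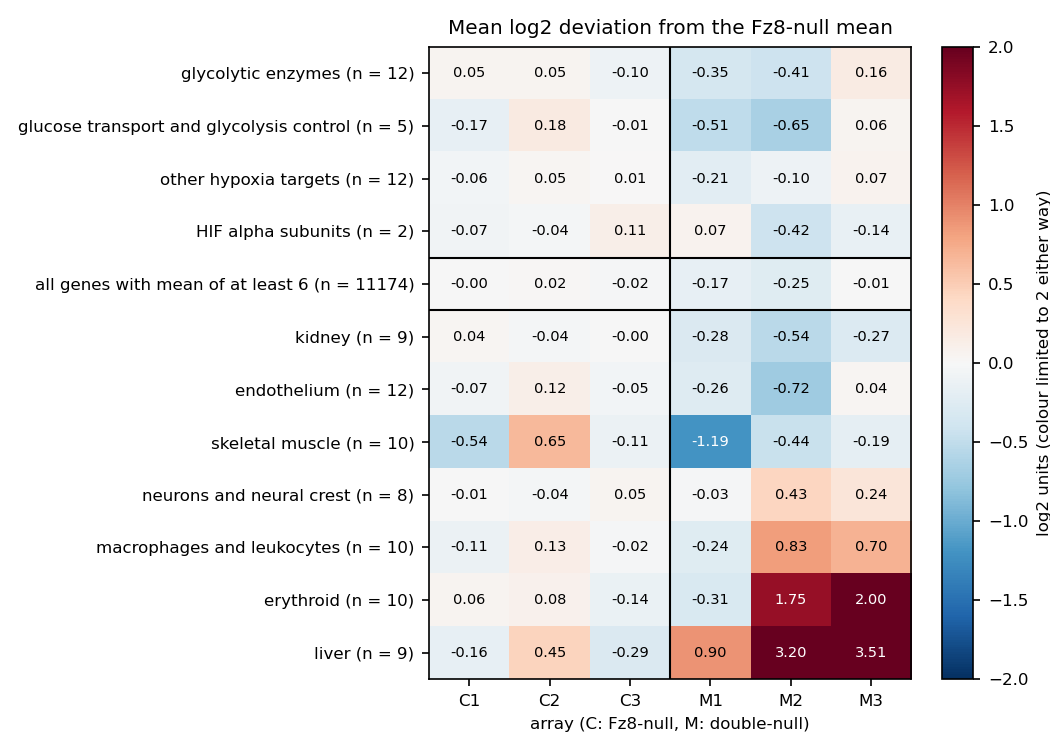
Mean log2 deviation from the Fz8-null mean of each gene (colour and printed value) by array (columns) for the 4 groups of hypoxia and glycolysis genes, for all genes whose mean reached 6, and for 7 lists of cell type markers (n, genes measured). Glycolytic groups are lower in M1 and M2 and not in M3, and liver and erythroid markers are high in M2 and M3.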

How the data were processed

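The 6 arrays were read from the table the authors deposited, which holds log2 probe-set intensities, normalized with RMA per the submitters' processing notes (version not given in the sources used here). The values were used as deposited. Of 45101 probe sets 64 controls were set aside. Of the 45037 tested, 34945 had 1 gene in the platform annotation, 932 several and 9160 none. Arrays carry no read depth, so their number limits the precision.

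Limma 3.58.1 (R 4.3.3; lmFit, eBayes without trend, over all probe sets) compared the genotypes, two-sided. P-values were adjusted by Benjamini-Hochberg over the 18193 representative probe sets, with a threshold of 0.05. SE is limma's moderated error, and the code was tested on simulated data. All members are described, and those with an unadjusted p under 0.05, groups without overlap, or fixed for their role (Vegfa, Slc2a1, Car9, Hif1a, Epas1) by array. From each pathway list, the 2 genes of smallest p are named where none was called. Other arrays or probe sets printed were chosen after their values were seen. The members and lists were chosen with earlier results of these data known. RefSeq windows (GRCm38.p6) were matched by symbol for 32 of 34 genes. Alternatives were other normalizations, centring, filters, variance models, array weights, a replicate block, the mean of all probe sets, and each array left out. Added after seeing the data were M1 and M2 left out together and eBayes on the representative probe sets alone.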

Additional observations from a re-analysis of the deposited data

Results flagged for a closer look

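Ribosomal control probe sets, which belong to no comparison above, read higher in double-null arrays. The 5-prime probe set of 18S RNA read 8.53, 7.59 and 7.84 in C1, C2 and C3 and 9.88, 10.56 and 9.86 in M1, M2 and M3, a difference of 2.11. The 3-prime probe set differed by 1.73, and the middle one by -0.091. The first 2 were high in M1, M2 and M3, while the mean of the enzymes was low in M1 and M2 and not in M3. The part of the ribosomal probe sets in the results was not tested.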

How the results depend on the processing

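Over all genes 3 passed, and 7298 did with array weights, 1 with the probe sets of each gene averaged, 38 without M1 and M2 together, 5 with eBayes on the representative probe sets alone, 9 at an adjusted p of 0.1, and 0 to 2883 when an array was left out. Of the 31 genes 0 passed in every setting except array weights (14) and the arrays left out (0 to 5; 5 without M3). Groups without overlap numbered 18 of 31 without M1 and M2, where 53.1% of all genes did not overlap, and 6 to 20 with an array left out, where the share of all genes was 23.1% to 53.4%. The median of the enzymes was 0.17 without M1 and M2 and -0.35 to -0.099 with an array left out. For transport and control genes the latter range was -0.56 to -0.12. The median of other hypoxia targets was -0.24 with array weights, 0.069 without M1 and M2 and -0.18 to -0.046 with an array left out. That of all genes was -0.0061 with equal array medians, -0.15 over genes whose mean reached 6, 0.0078 when M1 and M2 were dropped and -0.096 to -0.033 with an array left out. Where values changed sign, none of them was called. Without M1 and M2 these were Hk1 (0.32), Pfkl (0.18), Pfkm (0.15), Aldoa (0.18), Aldoc (0.70), Tpi1 (0.20), Pgam1 (-0.024), Pkm (0.14), Ldha (0.037), Pfkfb4 (0.64), Ankrd37 (0.082), Ndrg1 (0.056), P4ha1 (0.35) and Hif1a (-0.12). With array weights they were Hk1 (0.034), Slc2a1 (-0.040) and Car9 (-0.30). With probe sets averaged they were Aldoc (0.28), Pgk1 (0.053), Slc2a1 (-0.072), Higd1a (-0.14), P4ha1 (0.14) and Hif1a (-0.060). With quantile normalization they were Tpi1 (0.056), Car9 (-0.054), Ndrg1 (0.012) and P4ha1 (0.066), and with equal medians Tpi1 (0.052). With an array left out, ranges that crossed 0 were -0.38 to 0.14 for Hk1, -0.041 to 0.30 for Pfkp, -0.10 to 0.048 for Tpi1, -0.044 to 0.078 for Slc2a1, -0.56 to 0.14 for Pfkfb4, -0.18 to 0.34 for Car9, -0.22 to 0.0078 for Ndrg1, -0.27 to 0.069 for P4ha1 and -0.0072 to 0.35 for Egln3. The causes were not tested. With the replicate number as a block, 3 genes and 0 of the 31 passed. The pairing check gave residual correlations of 0.17, -0.14 and 0.090 between arrays of the same number, inside the range of the other pairs (-0.23 to 0.25), so the numbers were not taken as pairs.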
